A study of Saccharomyces cerevisiae with 47 samples.

Results

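The genes for the proteins that start, extend and end translation in budding yeast were examined for binding sites of Reb1 and Abf1 in reconstituted chromatin. The set was a named list of 40 genes, among 6002 protein-coding genes of the R64 table, with 27 initiation factor genes and 13 elongation and termination factor genes. A gene was counted as having a site when the centre of a listed site lay within 500 bp upstream of its start codon. All 40 genes were found in the table by symbol.

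The study assembled chromatin in vitro from a yeast plasmid library and recombinant yeast histone octamers, added Strep-tagged Reb1 or Abf1, and pulled the factor down after crosslinking and MNase digestion. For each factor, pulldowns came from reactions with 50 nM factor and INO80, ISW2 or Chd1 at 24 nM or RSC at 12 nM, from reactions with 50 nM factor alone, and from controls without factor or remodeler, with 2 replicates each. Matching inputs, kept before the pulldown, were sequenced as well. The data used here were 1 list of sites per factor for the series as a whole, with 942 distinct Reb1 sites and 1365 distinct Abf1 sites.

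The lists carry no sample, so neither replicate spread, depth nor the effect of a remodeler can be read for any gene, and no test between conditions was possible. In 12 of the 24 pulldowns the description names a coverage file of the other factor than the title does, and no source used here gives the samples behind each list. According to the series text the DNA came from chromosomes V to IX, and 6 of the 40 genes lie on those. Those 6 are *TIF4631*, *TIF4632*, *PAB1*, *GCD11*, *GCD2* and *HYP2*, and the last 4 of them had a site. The other 25 genes with a site lie on chromosomes that the series text does not name, so whether their DNA was in the reactions is not known from the sources used here.

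Translation begins when the eIF4F complex binds the mRNA cap and the small ribosomal subunit, with eIF3 and the initiator tRNA carried by eIF2, finds the start codon. The guanine nucleotide exchange factor eIF2B recharges eIF2, and its inhibition by phosphorylated eIF2 is the classic control point of the yeast starvation response. Elongation factors deliver aminoacyl-tRNA and move the ribosome, and release factors free the finished protein. Reb1 and Abf1 are general regulatory factors that bind defined DNA motifs, many of them in promoters, and can hold nucleosomes away from these positions.

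A site of either factor lay upstream of 29 of the 40 genes (72.5%, exact 95% binomial interval 56.1 to 85.4), against 24.7% of all protein-coding genes. Reb1 sites were found at 15 genes (37.5%, 22.7 to 54.2), against 12.5% of all genes, and Abf1 sites at 17 (42.5%, 27.0 to 59.1), against 13.5%. Sites of both factors were present at 3 genes, *DED1*, *SUI1* and *SUI3* (7.5%, against 1.35%), so 12 genes had Reb1 alone, 14 had Abf1 alone and 11 had neither. The intervals cover counting error over genes only, and no test was made, since the list was drawn up with results of these data known. Where a motif occurs and where a factor bound it are not separated by these counts.

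**Figure D1:**
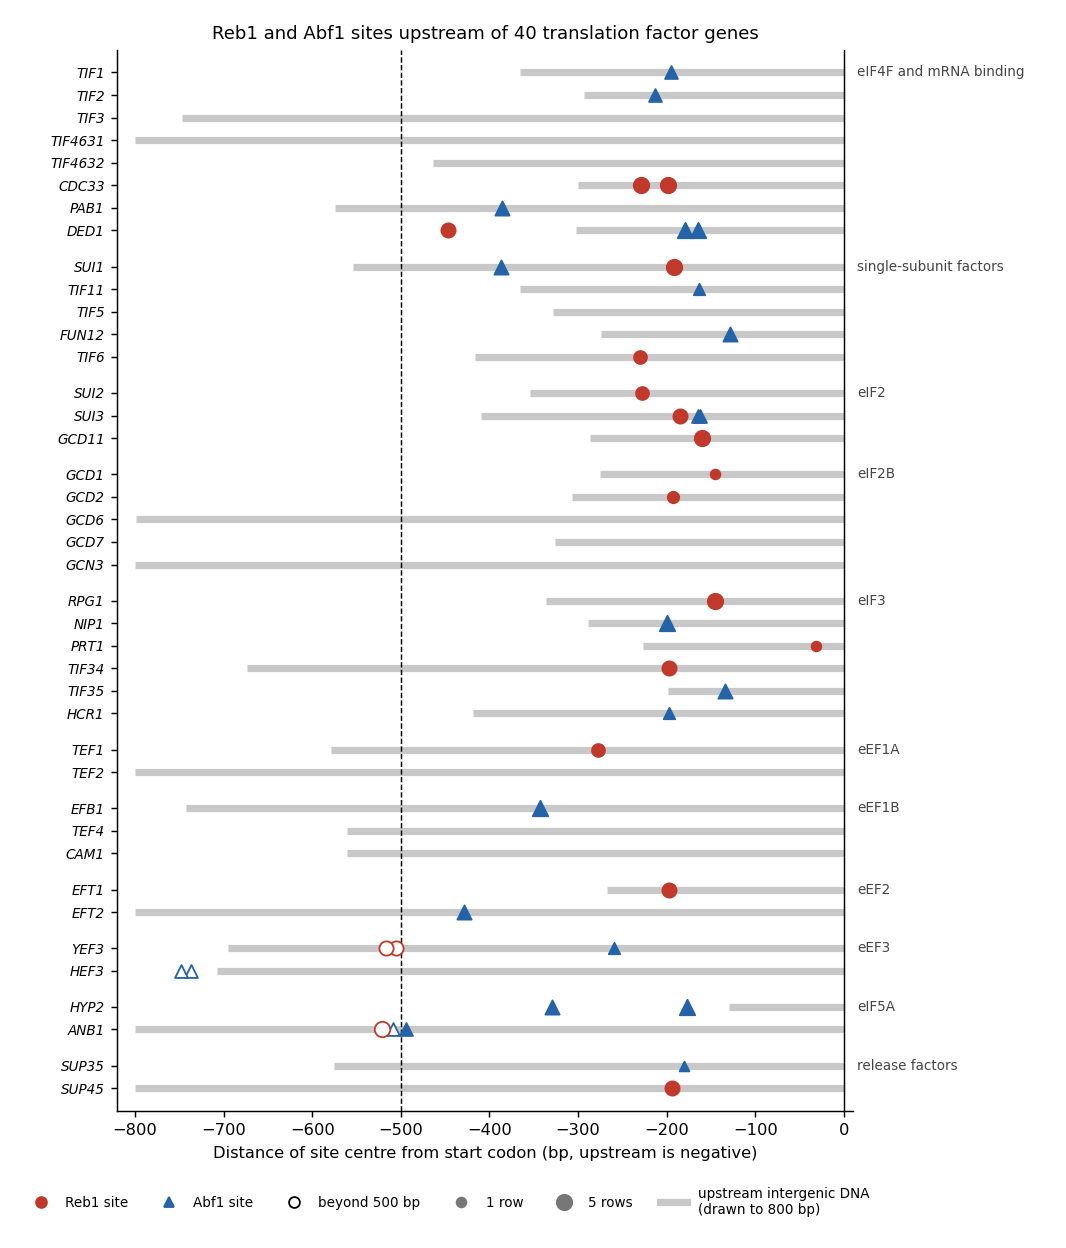
Position of each listed Reb1 site (circles) and Abf1 site (triangles) upstream of the 40 genes, in bp from the start codon, with symbol size growing with the number of identical rows (1 to 5) and grey bars for intergenic DNA, drawn to 800 bp. Filled symbols are the 36 pairs of a gene and a site within 500 bp. Of these, 18 lie 151 to 200 bp from the start codon, the fullest 50 bp class, picked from these same pairs.

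Among the genes of the cap-binding complex and its partners, 5 of 8 had a site (62.5%, against 24.7% of all genes). *CDC33*, the gene of the cap-binding protein eIF4E, had 2 Reb1 sites, 198 and 229 bp from the start codon (chromosome XV, 61218 to 61227 and 61249 to 61258). Both were listed in 5 identical rows, the most that any site in either list reached. *TIF1* and *TIF2*, which both encode the RNA helicase eIF4A, each had a single Abf1 site, at 195 and 213 bp, with scores of 12.8 and 11.7. *PAB1*, the poly(A)-binding protein gene, had an Abf1 site 386 bp upstream (chromosome V, 509980 to 509995).

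*DED1*, which encodes a DEAD-box helicase that helps ribosomes scan structured leaders, had 3 sites. Its Abf1 sites were centred 165 and 179 bp upstream (chromosome XV, 722739 to 722754 and 722725 to 722740), on the same strand and in 5 rows each. The nearer of them scored 14.3 and stood at rank 69 of 1365 in the Abf1 list. The Reb1 site of *DED1*, 447 bp from its start codon, had its centre inside the upstream gene *HIS3*. The eIF4G genes *TIF4631* and *TIF4632* and the eIF4B gene *TIF3* had no site of either factor within 1000 bp.

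Of the single-subunit initiation factors, *SUI1* (eIF1, which guards start codon choice) had a Reb1 site at 192 bp and an Abf1 site at 387 bp. The *SUI1* Abf1 site scored 14.8 and stood at rank 38 of 1365, the highest place of any translation factor site in its list. *TIF11* (eIF1A) had an Abf1 site at 163 bp with a score of 13.8, and *FUN12* (eIF5B, which joins the ribosomal subunits) had one at 129 bp with a score of 12.1. *TIF6* (eIF6, which also acts in assembly of the large subunit) had a Reb1 site at 230 bp. *TIF5*, the gene of the GTPase-activating factor eIF5, had none within 1000 bp. A site was thus at 4 of these 5 genes (80%, against 24.7% of all genes).

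All 3 subunit genes of eIF2, which carries the initiator tRNA, had a Reb1 site, against 12.5% of all genes. The site of *SUI2* (alpha subunit) was 228 bp from the start codon (chromosome X, 450788 to 450797), that of *SUI3* (beta) 185 bp (chromosome XVI, 100307 to 100316) and that of *GCD11* (gamma) 160 bp (chromosome V, 205087 to 205096). Their Reb1 scores were 12.0, 12.9 and 11.3, so 1 of the 3 stood in the upper part of a list with a median of 12.3. *SUI3* also had 2 Abf1 sites, 162 and 165 bp upstream, which overlapped each other and whose centres were 23 and 20 bp from the centre of the Reb1 site. This was the closest approach of the 2 factors at any of the 40 genes within the 500 bp limit.

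The eIF2B genes differed among themselves. *GCD1* (gamma) and *GCD2* (delta) had Reb1 sites, at 145 and 193 bp, with scores of 11.2 and 11.9 and listed in 1 and 2 rows. *GCD6* (epsilon, the catalytic subunit), *GCD7* (beta) and *GCN3* (alpha) had no site of either factor within 1000 bp. The count was thus 2 of 5 for Reb1 (40%, against 12.5% of all genes) and 0 of 5 for Abf1 (against 13.5%). With 5 genes, a count of 0 cannot be told from that share, and a count of 2 is too small to show an excess.

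All 6 genes of eIF3, the scaffold complex of the small subunit, had 1 site each, against 24.7% of all genes with a site. Reb1 was at 3 (50%, against 12.5%) and Abf1 at 3 (50%, against 13.5%). Reb1 sites lay 145 bp upstream of *RPG1* (eIF3a), 197 bp upstream of *TIF34* (eIF3i) and 32 bp upstream of *PRT1* (eIF3b). Abf1 sites lay 200 bp upstream of *NIP1* (eIF3c), 134 bp upstream of *TIF35* (eIF3g) and 197 bp upstream of *HCR1* (eIF3j). The *PRT1* site, in 1 row, was nearer the start codon than any other in the set, and the next nearest was the *FUN12* site at 129 bp. The *TIF34* site had the lowest score in the Reb1 list, 11.1, which it shared with other sites for a total of 22, and yet was listed in 4 rows. Row number and score thus differed in what they singled out here.

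Elongation factor genes had a site in 7 of 11 cases (63.6%, against 24.7% of all genes). Abf1 was at 5 (45.5%, against 13.5%) and Reb1 at 2 (18.2%, against 12.5%). *EFB1*, the gene of the nucleotide exchange subunit of eEF1B, had an Abf1 site 343 bp upstream (chromosome I, 141824 to 141839), with a score of 14.8, rank 39 of 1365, and 5 rows. *TEF1* (eEF1A, which delivers aminoacyl-tRNA) had a Reb1 site at 277 bp, scoring 12.6. *YEF3* (eEF3, an ATPase of fungal elongation) had an Abf1 site at 259 bp, scoring 11.3. *TEF4* and *CAM1*, which encode the gamma subunit of eEF1B, had no site within 1000 bp, and neither had *TEF2*, the second eEF1A gene.

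Both release factor genes had 1 site, against 24.7% of all genes with a site. *SUP45* (eRF1, which reads stop codons) had a Reb1 site at 194 bp (chromosome II, 532372 to 532381), scoring 13.7, the highest Reb1 score of the set. *SUP35* (eRF3, its GTPase partner and a prion protein) had an Abf1 site at 180 bp, scoring 11.2 and listed in 1 row, the lowest Abf1 score of the set.

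The paralogue pairs did not share their sites throughout. Of 7 pairs, 2 had a site of the same factor at both genes, 1 had a different factor at each gene, 2 had a site at 1 gene only and 2 had none. *TIF1* and *TIF2* matched in factor and nearly in distance, and both lie downstream of a glycogenin gene, *GLG1* and *GLG2*, but the Abf1 site was on the gene's strand at *TIF1* and on the opposite one at *TIF2*. The eEF2 genes *EFT1* and *EFT2* differed, with a Reb1 site at 197 bp (score 11.9) and an Abf1 site at 429 bp (score 13.6). *TEF1* had a site and *TEF2* had none, and *YEF3* had one and *HEF3* none within the limit. The eIF5A genes both had Abf1. *HYP2*, the gene used in the presence of oxygen, had sites at 177 and 329 bp, both centred inside the neighbouring gene *UTR5*. *ANB1*, the hypoxic gene, had its site at 494 bp.

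Values near the 500 bp limit concerned *ANB1* and *YEF3*. The *ANB1* Abf1 site at 494 bp was just inside, and further sites of *ANB1* lay just outside, Abf1 at 509 bp and Reb1 at 521 bp. *YEF3* had Reb1 sites just outside, at 506 and 517 bp. These 2 genes were the ones that a 1000 bp limit added to the Reb1 count of the elongation and termination genes. The only other sites beyond 500 bp and within 1000 bp were an Abf1 pair at 737 and 748 bp for *HEF3*, inside *PBI2*, and another at 958 and 960 bp for *TIF6*.

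Reb1 sites lay upstream of 12 of 27 initiation genes (44.4%, 25.5 to 64.7) and 3 of 13 elongation and termination genes (23.1%, 5.04 to 53.8). The difference was 21.4 percentage points, with a Newcombe 95% interval of -10.6 to 44.9. Abf1 sites were found at 11 of 27 initiation genes (40.7%, 22.4 to 61.2) and 6 of 13 elongation and termination genes (46.2%, 19.2 to 74.9), a difference of -5.41 points (-35.0 to 24.1). For either factor the counts were 20 of 27 (74.1%) and 9 of 13 (69.2%), a difference of 4.84 points (-21.2 to 34.6). The intervals cover counting error over genes only. Genes of one class are not replicates and some are paralogues, so no test between the classes was made. Neither a difference in how often the classes had a site nor a likeness was shown. The 3 genes with both factors were all initiation genes (11.1% of that class, against 1.35% of all genes). With 13 elongation and termination genes, a count of 0 cannot be told from that share. The elongation genes *YEF3* and *ANB1* had Abf1 within the limit and Reb1 just outside, at 506 and 521 bp.

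**Figure D2:**
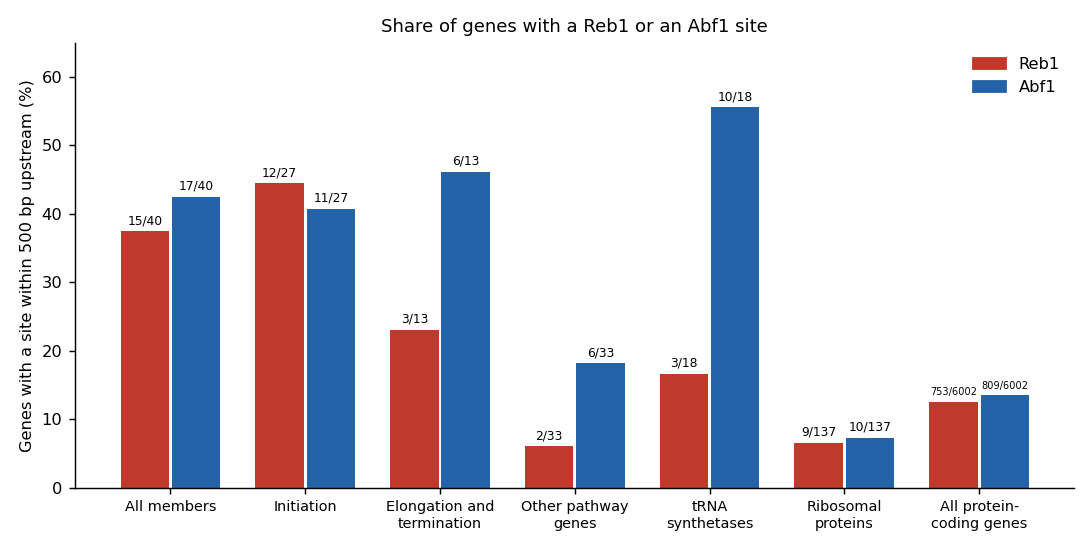
Share of genes, in percent, with a Reb1 site or an Abf1 site within 500 bp upstream, with the number of genes with a site over the number in the group above each bar. The 40 translation factor genes reach 37.5% for Reb1 and 42.5% for Abf1, against 12.5% and 13.5% of all protein-coding genes (members included).

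The classes differed in the DNA that lies before them. The median length of intergenic DNA upstream was 354 bp for initiation genes (interquartile range 296.5 to 509), 695 bp for elongation and termination genes (561 to 953) and 448 bp for all genes (280 to 731). At least 500 bp was present at 7 of 27 initiation genes (25.9%) and 11 of 13 elongation and termination genes (84.6%), against 43.8% of all genes. The part of the length in the class counts was not tested. Among genes with at least 200 bp, a restriction added after seeing the data, the 40 genes kept 38, of which 15 had Reb1 (39.5%, against 13.1% of all such genes), 15 had Abf1 (39.5%, against 13.9%) and 27 had either (71.1%, against 25.6%).

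Genes with and without a site also differed in their neighbours. The upstream neighbour was divergent at 8 of the 29 genes with a site and at 7 of the 11 without, and at 15 of all 40 (37.5%), against 52.0% of all protein-coding genes. With a tandem neighbour, 21 of 25 genes had a site of either factor (84.0%, against 21.8% of all tandem genes). With a divergent neighbour, 8 of 15 did (53.3%, against 27.4%). The 7 genes with a divergent neighbour and no site were *TIF3*, *TIF4631*, *GCD6*, *GCN3*, *TEF2*, *TEF4* and *CAM1*, and their upstream intergenic DNA ran from 561 bp at *TEF4* and *CAM1* to 1708 bp at *GCN3*. The other 4 without a site were *TIF4632*, *TIF5*, *GCD7* and *HEF3*.

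**Figure D3:**
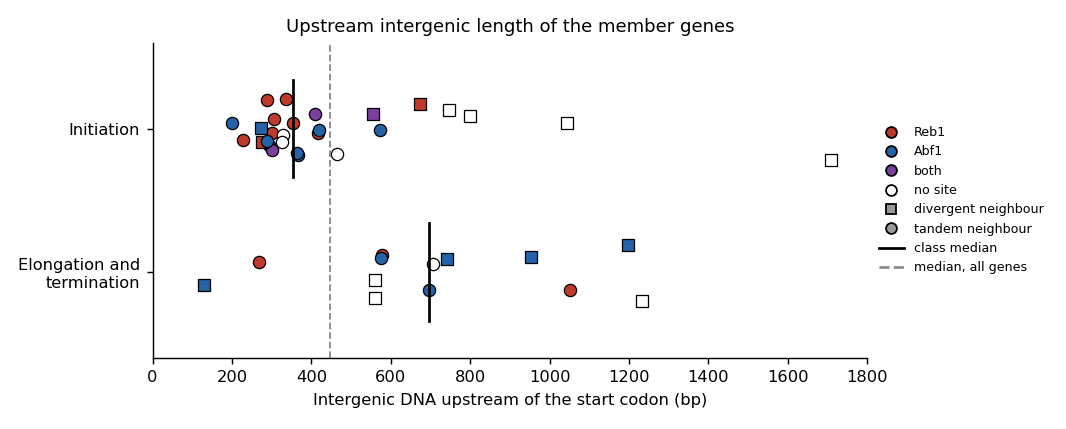
Length of intergenic DNA upstream of each gene, in bp, by class, coloured by the factor with a site and shaped by the orientation of the upstream neighbour. Black bars are class medians (354 bp for initiation, 695 bp for elongation and termination), and the dashed line is the median of all genes (448 bp). Vertical scatter within a class only separates the points.

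A site between divergent genes can stand before both. This held for 7 of the 36 gene and site pairs (19.4%), against 43.6% of the 1739 pairs of all genes. Fewer of the translation factor genes with a site had a divergent neighbour, 8 of 29, against 855 of 1481 over all genes. The part of this arrangement in the lower share was not tested. *GCD1* shared its Reb1 site, at 145 bp, with the proteasome ATPase gene *RPT4*, at 131 bp. *FUN12* shared its Abf1 site with *RBG1*, a GTP-binding protein gene, at 129 and 146 bp. Each of these 2 sites was thus at a like distance from both start codons.

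The other shared sites were less even. *SUI1* shared both of its sites with *SLA2*, an actin-binding adaptor gene of endocytosis. Since both sites lie between the 2 start codons, their order is necessarily reversed between the genes. The Reb1 site was 192 bp from *SUI1* and 363 bp from *SLA2*, and the Abf1 site 387 bp from *SUI1* and 168 bp from *SLA2*. *EFB1* shared its Abf1 site with the Hsp70 chaperone gene *SSA1* (343 and 400 bp), *ANB1* shared one with the cytochrome c gene *CYC1* (494 and 460 bp), and *TIF34* its Reb1 site with the lipid droplet gene *LDO45* (197 and 478 bp).

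Sites of both factors lay mostly from 100 to 250 bp upstream. The 16 Reb1 pairs had a median distance of 195.5 bp (interquartile range 179 to 228), against 198 bp (149 to 320) over the 813 Reb1 pairs of all genes. The 20 Abf1 pairs had a median of 196 bp (165 to 332.5), against 212.5 bp (153 to 340) over 926 pairs. Medians were thus close to those of all genes. Beyond 300 bp lay 1 of 16 Reb1 pairs (6.25%), against 27.2% of all Reb1 pairs, and 6 of 20 Abf1 pairs (30.0%), against 32.1%, so the share of distant sites was lower for Reb1 and similar for Abf1. Between 100 and 250 bp were 26 of 36 pairs (72.2%), against 58.3% of all pairs.

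The median distance of Abf1 sites was larger at elongation and termination genes, which had few such sites. In initiation genes the 13 Abf1 pairs had a median distance of 179 bp (range 129 to 387), and in elongation and termination genes the 7 pairs had a median of 329 bp (177 to 494). For Reb1 the medians were 193 bp (32 to 447, 13 pairs) and 197 bp (194 to 277, 3 pairs). With both factors, 22 of 26 initiation pairs (84.6%) and 4 of 10 elongation and termination pairs (40.0%) lay from 100 to 250 bp. Within 300 bp the Abf1 count of the elongation and termination genes was 3 (23.1%, against 9.6% of all genes). Within 500 bp it was 6 (46.2%, against 13.5%). These ranges overlap, and pairs of one gene are not independent: the 7 Abf1 pairs came from 6 genes. Upstream intergenic DNA was also longer in that class (median 695 bp, against 354 bp for initiation genes). Its part in these distances was not tested.

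**Figure D4:**
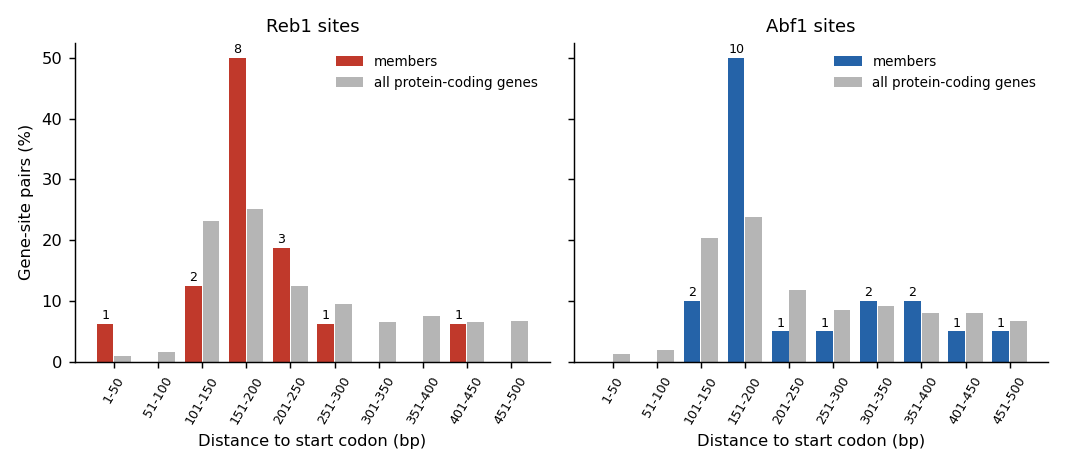
Share of gene and site pairs, in percent, by distance to the start codon in 50 bp classes, for the 40 genes (coloured, with the number of pairs above the bar) and for all protein-coding genes (grey). The 151 to 200 bp class holds 8 of 16 Reb1 pairs and 10 of 20 Abf1 pairs, against 25.1% and 23.9% over all genes. It was picked as the fullest class of the 40 genes, so the comparison favours them and no test was made.

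The sites of initiation genes more often lay on the strand opposite to the gene. The few elongation and termination pairs were evenly split between the strands. Over both classes the listed strand was that of the gene in 10 of 36 pairs (27.8%), against 48.6% of all pairs. For Reb1 the count was 3 of 16 (18.8%, against 47.2%), with *SUI1*, *RPG1* and *EFT1* on the gene's strand, and for Abf1 7 of 20 (35.0%, against 49.8%). Initiation genes had 5 of 26 pairs on the gene's strand and elongation and termination genes 5 of 10. In the latter class, 2 of 3 Reb1 pairs and 3 of 7 Abf1 pairs were on the opposite strand. A difference between the classes was not tested. Sites that stand before a single gene gave 7 of 29 (24.1%), against 47.1% of such pairs of all genes. By class these were 3 of 21 for initiation genes and 4 of 8 for elongation and termination genes. Multiple sites in one promoter weigh on these counts, since all 3 sites of *DED1*, all 3 of *SUI3* and both of *CDC33* were on the opposite strand.

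Against other upstream sites, Reb1 sites of the translation factor genes had lower scores and Abf1 sites similar ones. The scores are the authors' own, without a stated definition, and were compared only within a list. Of the Reb1 pairs 6 of 16 (37.5%) were at or above the list's median, against 56.2% of all Reb1 pairs, and the median score was 11.9, against 12.6. Of the Abf1 pairs 14 of 20 (70.0%) were, against 65.4%, with a median score of 12.7, against 12.6. Counted by gene, 6 of the 40 had a Reb1 site at or above the median score (15.0%, against 7.26% of all genes) and 12 had such an Abf1 site (30.0%, against 9.3%).

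The upper Reb1 scores belonged to *SUP45*, *SUI3*, *SUI1*, *TIF6*, *TEF1* and the farther site of *CDC33*. Of the initiation genes 4 of 27 (14.8%) and of the elongation and termination genes 2 of 13 (15.4%) had such a Reb1 site, so 8 of the 12 initiation genes and 1 of the 3 elongation and termination genes with Reb1 had it only below the median. Abf1 sites of this kind were at 8 of 27 (29.6%) and 4 of 13 (30.8%). The sites within the top 10% of their list, with ties counted at their far end, were the Abf1 sites of *SUI1* and *EFB1* and the nearer Abf1 site of *DED1*. The Reb1 site of *SUP45* stood at rank 40 of 942 but shared its score with other sites for a total of 67, so that 11.3% of the list scored as high or higher.

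**Figure D5:**
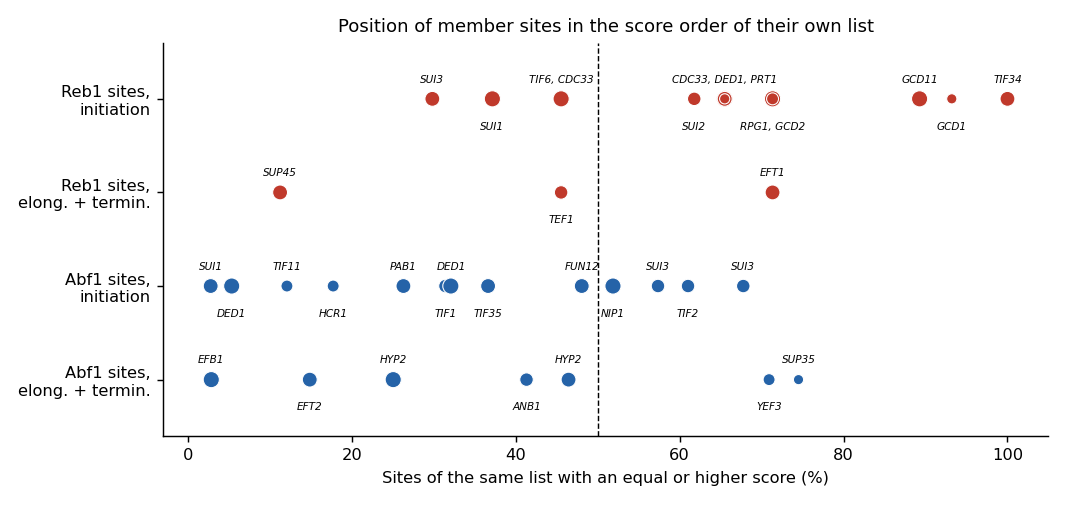
Position of each site in the score order of its own list, as the percent of sites in that list with an equal or higher score (low values are high scores), by factor and class, with symbol size growing with the number of identical rows. The dashed line marks 50%, and 6 of 16 Reb1 sites and 14 of 20 Abf1 sites are at or above the median score.

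Sites were often listed more than once, and what a repeated row stands for is not stated. Of the 36 pairs, 21 (58.3%) were in 4 or 5 identical rows, against 39.2% of all pairs, and 3 (8.33%) were in 1 row, against 16.4%. The share in 4 or 5 rows was 62.5% for Reb1, against 41.8%, and 55.0% for Abf1, against 36.8%. Initiation genes had 15 of 26 such pairs and elongation and termination genes 6 of 10. The sites in 5 rows were both of *CDC33*, those of *GCD11* and *RPG1* and the Reb1 site of *SUI1*, and for Abf1 both of *DED1*, the nearer of *HYP2*, and those of *NIP1* and *EFB1*. *GCD11* and *RPG1* were below the median score of the Reb1 list all the same, at 11.3 and 11.9.

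Other genes of translation were taken from a list of 33. Of these, 2 had a Reb1 site (6.06%, against 12.5% of all genes), 6 an Abf1 site (18.2%, against 13.5%) and 7 either (21.2%, against 24.7%). *STM1*, a ribosome-bound factor gene, had both, Reb1 at 377 bp and Abf1 at 361 bp. *GCN2*, the gene of the kinase that phosphorylates eIF2, had an Abf1 site at 332 bp with a score of 14.7, rank 47 of 1365. *DBP1*, a paralogue of *DED1*, had an Abf1 site at 181 bp, scoring 14.2.

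Among recycling and surveillance genes, *RLI1*, which encodes the ATPase that splits ribosomes after termination, had 3 Abf1 sites, at 431, 434 and 442 bp. *NMD2*, a nonsense-mediated decay gene, had 1 at 190 bp. *MTQ2*, the gene of the enzyme that methylates Sup45, had an Abf1 site at 214 bp, inside *RUB1*. Of the 6 mitochondrial translation factor genes *TUF1*, for the mitochondrial counterpart of eEF1A, had a Reb1 site at 295 bp, and none had an Abf1 site.

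Cytosolic tRNA synthetase genes had a site of either factor in 12 of 18 cases (66.7%), against 72.5% of the translation factor genes and 24.7% of all genes. Their Reb1 count was 3 (16.7%), near the 12.5% of all genes, and their Abf1 count 10 (55.6%), against 13.5%. Cytosolic ribosomal protein genes had a site of either factor in 19 of 137 cases (13.9%), below the 24.7% of all genes. Differences between these lists were not tested.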

How the data were processed

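The authors deposited 1 site list per factor, giving position, strand and score. The score was deposited by the authors without a definition. Bowtie and the builds sacCer3 and R64 are named in the submitters' processing notes, with no role given. How motifs and peaks were called, at which thresholds and from which samples, no source used here states. Identical rows (2808 for Reb1, 3699 for Abf1) were collapsed to distinct sites. Positions are printed as deposited; their counting base is not stated, which leaves them uncertain by 1 bp.

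Site centres were placed against coding extents of the R64 gene table from RefSeq, with strand read from the systematic name. A site could count for more than 1 gene. Upstream intergenic DNA ran to the nearest protein-coding gene. Members and lists, including those of tRNA synthetase and ribosomal protein genes, were chosen with earlier results of these data known. All members were accounted for, and partners and other pathway genes were named where they had a site. Shares have exact 95% binomial intervals, and class differences Newcombe intervals. Genes sharing a promoter are not independent. The placement of sites was tested on simulated data. Python 3.11.15 was used with pandas 2.3.3, numpy 2.4.6, matplotlib 3.10.9 and scipy 1.17.1.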

Additional observations from a re-analysis of the deposited data

How the results depend on the processing

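Of 89 values recomputed under 11 alternatives, 77 stayed within 1.5 times the main count or, for median distances, within 1 SD of the distances. Of the 12 that moved, 7 were counts on chromosomes V to IX, which had to fall with 6 members. Counting starts from 0, a shift of at most 1 bp, left all 7 of its values the same. The 77 of 89 is thus not a measure of robustness. Keeping only sites at or above the median score left 6 members with Reb1 (15.0%, against 7.26% of all genes). Of these, 4 were initiation genes (14.8% of that class, against 7.26%). Either factor was then at 17 members (42.5%, against 16.1% of all genes). Within 300 bp the elongation and termination genes with Abf1 numbered 3 (23.1%, against 9.6% of all genes). Within 1000 bp those with Reb1 numbered 5 (38.5%, against 16.3%). On chromosomes V to IX, which hold 6 members, 2 had Reb1 (33.3%, against 13.3% of all genes there), 2 Abf1 (33.3%, against 11.8%) and 4 either (66.7%, against 24.0%). There, 2 of 5 initiation genes had Reb1 (40.0%, against 44.4% in the main count) and 1 had Abf1 (20.0%, against 40.7%). The lone elongation gene had 0 Reb1 and counted 1 for Abf1. These counts are lower by construction, since only 6 members lie there. The shares rest on few genes, and their differences from the main ones were not tested. The share of members was above that of all genes in 76 of 77 comparisons, the exception being that lone gene for Reb1. These comparisons recount overlapping groups of the same genes, so they are not independent. The genes were also chosen with earlier results of these data known. The tally thus shows only that the main excess did not hinge on 1 setting, and it is not a test of that excess. No paired analysis was possible because the site lists carry no sample. Depth and replicate spread cannot be read from the lists, and no sequence was used here to locate motifs.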

Other observations

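A narrow window held many of the translation factor sites. From 192 to 200 bp before the start codon lay 9 of 36 pairs (25%), against 3.68% of the 1739 pairs of all genes, with 7 of the 9 at initiation genes. The genes were *TIF1*, *CDC33*, *SUI1*, *GCD2*, *NIP1*, *TIF34*, *HCR1*, *EFT1* and *SUP45*, on different chromosomes or far apart, and both factors were among them. The window was the fullest one of 9 bp, found from these values, so no test was made.

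Upstream of *ANB1*, 3 sites stood in a row on the same strand, with Abf1 centres at 494 and 509 bp and a Reb1 centre at 521 bp, the last in 5 rows with a score of 13.4. Only the first of them counted within 500 bp, so *ANB1* would have both factors with a slightly longer limit.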
